A study of Mus musculus with 9 samples.

Results

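In BV2 cells, 42 of the 54532 genes of the table were silent, or nearly so, in all 6 control and oxygen-glucose deprivation (OGD) libraries and were read in each of the 3 libraries of OGD cells given A-485. They encode a mixture of enzymes and transporters, secreted and cell-surface proteins, receptors, signalling proteins and structural proteins that are better known from gut, liver, inner ear, muscle, brain, skin and immune cells than as a single set. The genes were chosen by their measured values. FPKM (fragments per kilobase of gene, scaled for the reads of the library) multiplied by gene length, which puts all genes on a scale of reads, had to reach 2100 (about 30 reads) in each OGD + A-485 library and to stay at or under 240 (about 3 reads) in each of the other 6 libraries. In all, 45 genes met both limits, and 3 of them belonged to the 4 genes left out by the rule (Mrc1, C1qa, C1qb and C1qc). The levels of the 42 genes are therefore a description, and nothing is read from tests of them. The gap between OGD + A-485 and the other groups was fixed by the rule for each of these genes.

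RNA of BV2, an immortalized mouse microglial line, was sequenced in 3 groups of 3 libraries. Control cells were grown under normal conditions with 10% serum and no inhibitor. OGD cells were kept for 24 h in low-glucose medium with 4% serum under 4% oxygen. OGD + A-485 cells were kept in the same way and received 50 μM A-485 at the start of OGD. The dose and the time are given for the experiments that came before the transcriptome and are not restated for it. No group received A-485 without OGD, so an effect of A-485 that needs OGD and one that does not cannot be told apart. Nothing in the labels says whether the 3 libraries of a group came from separate cultures. The libraries held 12681228, 13653401 and 15594706 reads on genes in control, 12593250, 12842430 and 14000875 in OGD and 15208237, 16091038 and 15126135 in OGD + A-485. By counting error alone, a gene with an expected count of about 3 reads may still show 0 in a library.

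P300 and CBP are paralogous lysine acetyltransferases that are recruited by transcription factors to enhancers and promoters, where they acetylate histones and other proteins. A-485 occupies their catalytic site in competition with acetyl-CoA and lowers this acetylation. Microglia are the resident macrophages of the brain, and a line such as BV2 keeps part of the macrophage programme while genes of other tissues are mostly silent in it.

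The 42 genes together had 17, 25 and 16 reads in the control libraries, 16, 22 and 22 reads in the OGD libraries and 6224, 6707 and 6191 reads in the OGD + A-485 libraries. The last 3 sums amounted to 0.0409%, 0.0417% and 0.0409% of all reads on genes. Every member had reads in each OGD + A-485 library, and between 10 and 18 of them had any read in a given control or OGD library. Of the 42 genes, 11 had no read in any of the 6 control and OGD libraries, 16 had none in control and 20 had none in OGD. Mean levels in OGD + A-485 ran from 0.170 to 30.7 FPKM with a median of 1.86 FPKM, and 25 genes were above 1 FPKM but only 3 above 10 FPKM. In reads, the means ran from 37.3 to 895 per library with a median of 77.3. The members varied among the 3 OGD + A-485 libraries with coefficients of variation of 1.04% to 46.3% and a median of 12.4%, beside a median of 11.4% that counting error alone gives at their reads. Over 6926 other genes in the same range, most with more reads than the members, these medians were 7.52% and 5.82%. In RNA of whole cultures, a few cells with many transcripts and many cells with few cannot be told apart.

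**Figure D1:**
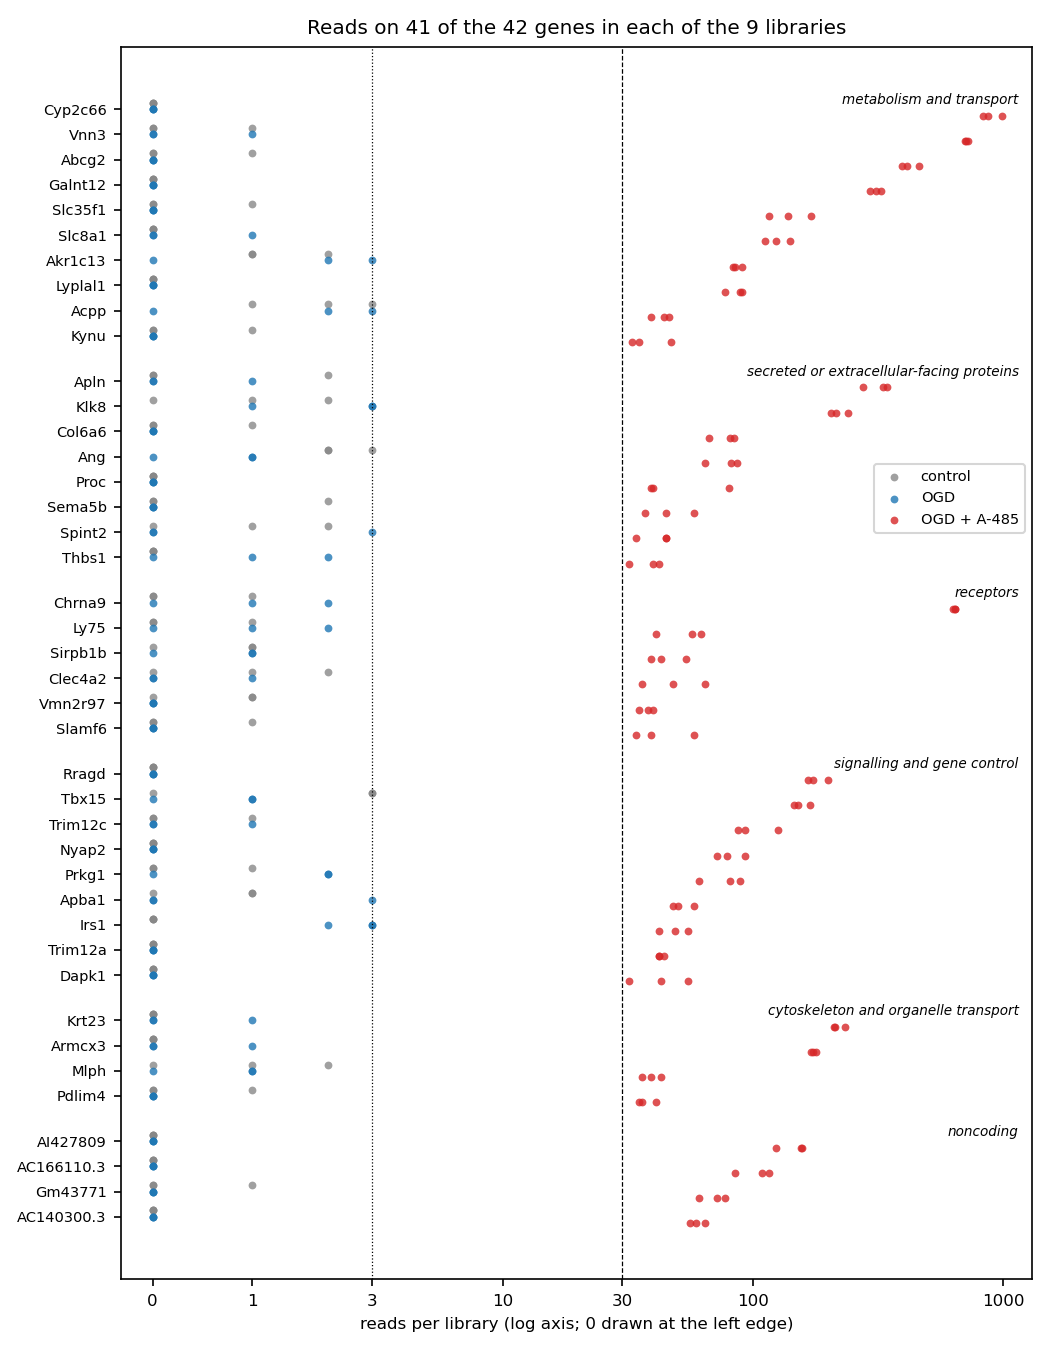
Reads of 41 of the 42 members in each of the 9 libraries, on a log axis with 0 at the left edge and lines at 3 and 30 reads, grey, blue and red for control, OGD and OGD + A-485. The control and OGD points lie at 0 to 3 reads, and the OGD + A-485 points run from 32 to 990 reads.

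Most members were ordinary coding genes. The annotation lists 38 of the 42 as protein-coding (90.5%, beside 70.7% of the 16123 genes tested), and the other 4 are 2 long intergenic noncoding RNAs, a transcribed processed pseudogene and a transcript of unsettled class. Gene lengths ran from 1202 to 14819 bases with a median of 3743.5, beside 3082 for the genes tested. All 42 were found by identifier in GENCODE M21, a set on the same genome build. The filter of the test across genes, an average of 0.2 FPKM or more over the 9 libraries, was passed by 28 of the 42 members. Calls needed a p under 0.01 before adjustment and a log2 fold change beyond 0.5 in either direction. Those 28 passed the filter through the group in which they are high and so had to differ: limma called 28 of 28 higher and 0 lower in OGD + A-485 against OGD (12.2% of all genes tested were called higher and 13.4% lower) and 28 higher and 0 lower against control (17% and 16.6%). In OGD against control, limma called 0 of 28 higher and 0 lower (11.2% and 9.81% of all genes tested), with 1 of 28 at an unadjusted p under 0.05. The choice of the genes fixed these counts, and nothing is read from them.

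The same limits were then applied to the other groups in place of OGD + A-485. No gene reached 2100 in each OGD library while staying at or under 240 in the control and OGD + A-485 libraries, and none did so in control alone. None was silent in control and high in both OGD groups, and none was silent in OGD and high in both other groups. In the reverse direction, 18 genes were high in all 6 control and OGD libraries and silent in OGD + A-485. Of these, 3 are named here after their values were seen. Syt14, a synaptotagmin of vesicle traffic, had the most reads at its lowest, with 258, 305 and 340 in control, 220, 235 and 219 in OGD and 0 in each OGD + A-485 library. Trim63, the muscle ubiquitin ligase MuRF1, had 94, 125 and 146 reads in control, 109, 93 and 84 in OGD and 0, 0 and 0 in OGD + A-485. The integrin subunit gene Itga3 had 52, 50 and 46 reads in control, 131, 104 and 137 in OGD and 0, 0 and 0 in OGD + A-485. Along a scale of read limits, 222 genes had at least 4 reads in each OGD + A-485 library while silent elsewhere, beside 19 for OGD and 21 for control. At 8 reads the numbers were 109, 3 and 1, at 15 reads 70, 1 and 0, and at 30 reads 46, 0 and 0, left-out genes included.

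**Figure D2:**
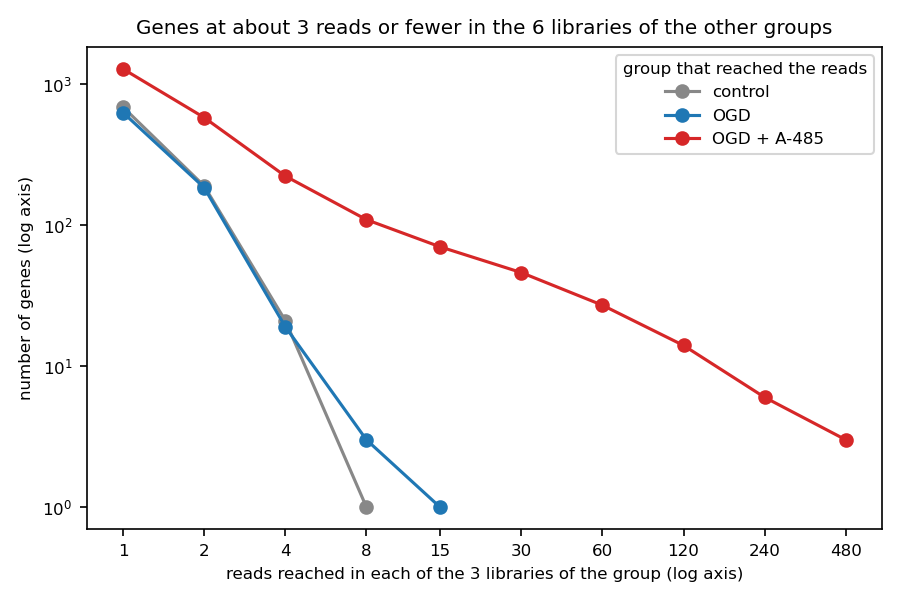
Number of genes (vertical axis) with at least the given reads in each of the 3 libraries of a group (horizontal axis) while at or under the silent limit in the other 6 libraries, for control, OGD and OGD + A-485. At 30 reads the curve of OGD + A-485 stands at 46 genes and control and OGD have none, both axes being log with counts of 0 not drawn.

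Genes near the limits had similar patterns with fewer reads or a single read more. Just inside the upper limit stood Thbs1, Pdlim4 and Dapk1, whose lowest OGD + A-485 values were 2190, 2216 and 2219 on the scale of FPKM times length. Just outside it, Zeb1, a repressor of epithelial genes, had 0 reads in each control and OGD library and 40, 40 and 28 reads in OGD + A-485. Vmn2r96, a vomeronasal receptor, and Osbpl10, an oxysterol-binding protein relative, had lowest OGD + A-485 values of 1916 and 1899 there. Just inside the lower limit stood Irs1, Spint2 and Klk8, whose highest control or OGD values were 236, 230 and 230. Just outside it, the Ras-related gene Rras2 had 1, 1 and 4 reads in control, 0, 1 and 1 in OGD and 72, 108 and 89 in OGD + A-485. The scavenger receptor gene Marco had 3, 4 and 3 reads in control, 2, 3 and 0 in OGD and 458, 448 and 468 in OGD + A-485, and Sirpb1c, a relative of the member Sirpb1b, had 3, 2 and 3 reads in control, 3, 0 and 4 in OGD and 116, 144 and 142 in OGD + A-485. Marco and Sirpb1c were as clearly split between the groups as many members and missed the limit by a single read in a library.

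Enzymes and transporters counted 10 members, with mean levels in OGD + A-485 of 0.393 to 30.7 FPKM. Roles were assigned by hand after the values were known. Cyp2c66 (chr19:39113898-39187072, plus strand) encodes a cytochrome P450 of the Cyp2c subfamily, whose members oxidise drugs and fatty acids and are typical of liver and intestine. It had 0 reads in every control and OGD library and 831, 990 and 864 reads in the OGD + A-485 libraries (30.7 ± 1.49 FPKM, SD, n = 3). Vnn3 (chr10:23851462-23869843, plus strand) belongs to the vanins, pantetheinases that release cysteamine and pantothenate, and had 1, 0 and 0 reads in control, 0, 0 and 1 in OGD and 704, 709 and 725 in OGD + A-485 (26.4 ± 1.5 FPKM, SD, n = 3). These were the 2 highest members by level. Cyp2c66 was at least 276-fold higher than a floor of 3 reads per library would give. For both genes, the rule itself required a gap between OGD + A-485 and the other libraries. The 250 bases upstream of the start of both are shown because their promoters differ from most active promoters in base composition, as described with the other promoters, with TATA box and CCAAT box matches on either strand in capitals (RefSeq, build GRCm38.p6, chr19:39113648-39113897 and chr10:23851212-23851461, both on the plus strand, written 5′ to 3′).
Cyp2c66: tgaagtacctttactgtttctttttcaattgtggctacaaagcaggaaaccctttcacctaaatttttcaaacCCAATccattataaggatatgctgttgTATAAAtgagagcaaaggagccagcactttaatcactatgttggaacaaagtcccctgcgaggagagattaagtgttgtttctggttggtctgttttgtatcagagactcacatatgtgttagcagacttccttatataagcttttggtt
Vnn3: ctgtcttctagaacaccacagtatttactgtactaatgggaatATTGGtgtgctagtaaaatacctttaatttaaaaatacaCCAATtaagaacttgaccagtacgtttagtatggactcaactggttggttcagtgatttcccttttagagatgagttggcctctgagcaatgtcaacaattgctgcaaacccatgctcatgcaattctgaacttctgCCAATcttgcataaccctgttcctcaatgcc

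Galnt12 and Abcg2 followed in reads among the enzymes and transporters. Galnt12 (chr4:47091909-47123070, plus strand) encodes a transferase that starts mucin-type O-glycans and is best known from the digestive tract. It had 0 reads in each control and OGD library and 323, 310 and 294 reads in OGD + A-485 (9.05 ± 0.555 FPKM, SD, n = 3), at least 95.6-fold above the floor of 3 reads per library. Abcg2 (chr6:58584523-58695676, plus strand) encodes the efflux pump BCRP of gut, placenta, the blood-brain barrier and stem cells. In its case there were 0, 1 and 0 reads in control, 0, 0 and 0 in OGD and 395, 410 and 458 in OGD + A-485 (3.47 ± 0.379 FPKM, SD, n = 3). A single control library held the only read of Abcg2 outside OGD + A-485.

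The ion and solute carriers were lower. Slc8a1 (chr17:81388691-81649607, minus strand), the sodium-calcium exchanger of heart muscle, had 0, 0 and 0 reads in control, 1, 0 and 0 in OGD and 124, 141 and 112 in OGD + A-485 (2.86 ± 0.199 FPKM, SD, n = 3). Slc35f1 (chr10:52690533-53111622, plus strand), a brain transcript of the nucleotide-sugar transporter superfamily, had 1, 0 and 0 reads in control, 0, 0 and 0 in OGD and 138, 171 and 116 in OGD + A-485 (1.91 ± 0.281 FPKM, SD, n = 3). Each gene had a single read outside the OGD + A-485 libraries. Akr1c13 (chr13:4191150-4205596, plus strand) encodes an aldo-keto reductase of steroid and xenobiotic metabolism. Reads of Akr1c13 were present at low number in most libraries, with 1, 1 and 2 reads in control, 2, 0 and 3 in OGD and 85, 90 and 83 in OGD + A-485 (4.01 ± 0.0417 FPKM, SD, n = 3). The gap between these OGD + A-485 libraries and the others was required by the rule, and nothing is read from it. Lyplal1 (chr1:186087731-186117310, minus strand) encodes a lysophospholipase-like hydrolase whose gene is known from studies of body fat distribution. It had 0 reads in the 6 control and OGD libraries and 89, 90 and 77 in OGD + A-485 (3.62 ± 0.238 FPKM, SD, n = 3), at least 26.4-fold above the floor. The remaining members of this role were Acpp, the prostatic acid phosphatase of prostate and pain-sensing neurons, with 39 to 46 reads in OGD + A-485, and Kynu, the kynureninase of tryptophan breakdown in liver and macrophages, with 33 to 47. The upstream bases of Lyplal1 are shown as the counterpart to those of Cyp2c66, since Lyplal1 has a CpG-rich start, with GC box matches in capitals (RefSeq, build GRCm38.p6, chr1:186117311-186117560, minus strand, written 5′ to 3′).
Lyplal1: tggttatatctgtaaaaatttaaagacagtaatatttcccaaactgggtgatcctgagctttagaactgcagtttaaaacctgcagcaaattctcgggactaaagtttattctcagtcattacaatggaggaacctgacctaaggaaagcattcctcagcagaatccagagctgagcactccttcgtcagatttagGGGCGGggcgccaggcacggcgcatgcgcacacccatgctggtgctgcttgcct

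Proteins that are secreted or face the outside of the cell, apart from receptors, made up 8 members. Apln (chrX:48025146-48034853, minus strand) encodes apelin, a peptide hormone of endothelium and fat that acts through the receptor Aplnr. It had 2, 0 and 0 reads in control, 1, 0 and 0 in OGD and 329, 344 and 276 in OGD + A-485 (6.72 ± 0.563 FPKM, SD, n = 3). Aplnr itself had 0 reads in all 9 libraries, so the ligand was read and its receptor was not detectable at this depth. Klk8 (chr7:43797577-43803826, plus strand) encodes neuropsin, a serine protease of hippocampus and epidermis, and had 2, 1 and 0 reads in control, 1, 3 and 3 in OGD and 204, 240 and 214 in OGD + A-485 (9.52 ± 0.412 FPKM, SD, n = 3). Klk8 had up to 3 reads in the control and OGD libraries, close to the limit of the rule. The upstream bases of Apln are shown as an example between Cyp2c66 and Lyplal1 in CpG ratio (0.493), with a GC box match in capitals (RefSeq, build GRCm38.p6, chrX:48034854-48035103, minus strand, written 5′ to 3′).
Apln: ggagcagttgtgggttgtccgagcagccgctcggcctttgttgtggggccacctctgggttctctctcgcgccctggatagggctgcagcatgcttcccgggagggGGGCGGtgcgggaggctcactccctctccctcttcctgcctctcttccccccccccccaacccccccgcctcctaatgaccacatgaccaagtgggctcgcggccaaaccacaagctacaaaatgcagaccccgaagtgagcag

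Ang (chr14:51091150-51102009, plus strand) encodes angiogenin, a secreted ribonuclease that is abundant in liver and promotes vessel growth. It had 2, 3 and 2 reads in control, 1, 1 and 0 in OGD and 82, 86 and 64 in OGD + A-485 (4.30 ± 0.528 FPKM, SD, n = 3), with 5 of the 6 control and OGD libraries above 0. Ang shares 219 exon bases on the same strand with Rnase4, a second ribonuclease gene driven from the same region, which had 15, 12 and 23 reads in control, 2, 4 and 5 in OGD and 457, 528 and 523 in OGD + A-485. The share of Ang reads that comes from the shared bases is uncertain. Col6a6 (chr9:105687809-105828160, minus strand), a chain of the beaded-filament collagen of muscle and skin, had 0, 0 and 1 reads in control, 0, 0 and 0 in OGD and 67, 84 and 81 in OGD + A-485 (0.564 ± 0.0579 FPKM, SD, n = 3). It was high in all OGD + A-485 libraries in reads but low per length, the gene being long (9166 bases). The others of this role were Proc, the anticoagulant protein C made by hepatocytes; Sema5b, a membrane-spanning semaphorin of axon guidance; Spint2, a membrane-spanning inhibitor of epithelial serine proteases; and Thbs1, the thrombospondin of platelets and wounded matrix. Proc differed most among the OGD + A-485 libraries, with 80, 39 and 40 reads and a coefficient of variation of 46.3%, and had 0 reads elsewhere. Sema5b had 37 to 58 reads in OGD + A-485, Spint2 34 to 45 and Thbs1 32 to 42.

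Receptors were led by Chrna9 (chr5:65934921-65977326, plus strand), the nicotinic acetylcholine receptor subunit of cochlear and vestibular hair cells. Chrna9 had 0, 1 and 0 reads in control, 1, 0 and 2 in OGD and 642, 642 and 628 in OGD + A-485 (14.1 ± 0.596 FPKM, SD, n = 3). The 3 OGD + A-485 libraries were close to each other. A noncoding member, Gm43771, lies within Chrna9 on the same strand and had 61 to 77 reads in OGD + A-485, so its reads cannot be told apart from unspliced Chrna9 transcripts. The other 5 receptors had under 100 reads per library. Ly75 (DEC-205), an endocytic receptor of dendritic cells and thymic epithelium, had 41 to 62 reads in OGD + A-485. Clec4a2, an inhibitory C-type lectin (DCIR) of dendritic and other myeloid cells, had 36 to 64. Sirpb1b, an activating receptor of myeloid cells, had 39 to 54, and Slamf6, a receptor of T, B and natural killer cells, had 34 to 58. Vmn2r97, a pheromone receptor of the vomeronasal organ, had 35 to 40 reads and the lowest level of all members, 0.170 FPKM. Of the 6 receptors, Ly75, Clec4a2, Sirpb1b and Slamf6 are those with a usual place on leukocytes.

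Signalling and gene control counted 10 members. Rragd (chr4:32983037-33022180, plus strand) encodes a Rag GTPase that brings mTORC1 to the lysosome when amino acids are present. It had 0 reads in all control and OGD libraries and 166, 199 and 174 in OGD + A-485 (2.32 ± 0.120 FPKM, SD, n = 3), at least 55.4-fold above the floor. Tbx15 (chr3:99240381-99354259, plus strand), a T-box transcription factor of limb mesenchyme, fat and glycolytic muscle, had 0, 3 and 3 reads in control, 1, 0 and 1 in OGD and 151, 169 and 146 in OGD + A-485 (2.77 ± 0.0774 FPKM, SD, n = 3). Reads of Tbx15 reached 3 in a pair of control libraries and 146 or more in each OGD + A-485 library. Trim12c (chr7:104338754-104353362, minus strand), a Trim5-related gene of antiviral defence, had 0, 1 and 0 reads in control, 1, 0 and 0 in OGD and 93, 126 and 87 in OGD + A-485 (1.82 ± 0.278 FPKM, SD, n = 3). That the groups of Trim12c did not overlap was required by the rule. Nyap2 (chr1:81076950-81341764, plus strand), a neuronal adaptor that binds phosphoinositide 3-kinase, had 0 reads in the 6 control and OGD libraries and 72, 79 and 93 in OGD + A-485 (0.436 ± 0.0686 FPKM, SD, n = 3), at least 25.2-fold above the floor. It is long, and so its level per length was low.

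A further 5 genes of this role had 32 to 89 reads per OGD + A-485 library. Prkg1, the cGMP-dependent kinase of smooth muscle and platelets, had 61 to 89 reads, and Apba1, a synaptic adaptor also called Mint1, had 48 to 58. Irs1, an insulin receptor substrate of muscle and fat, was the only member with reads in all 3 OGD libraries and none in control, with 3, 2 and 3 in OGD and 55, 49 and 42 in OGD + A-485. Trim12a, the neighbour and paralog of Trim12c, had 0 reads in control and OGD and 42, 42 and 44 in OGD + A-485. Dapk1, a calcium/calmodulin-dependent kinase of cell death, had 32 to 55. The upstream bases of Trim12a are shown because it is among the 3 members with a PU.1 match, marked in capitals with its CCAAT box matches (RefSeq, build GRCm38.p6, chr7:104315496-104315745, minus strand, written 5′ to 3′).
Trim12a: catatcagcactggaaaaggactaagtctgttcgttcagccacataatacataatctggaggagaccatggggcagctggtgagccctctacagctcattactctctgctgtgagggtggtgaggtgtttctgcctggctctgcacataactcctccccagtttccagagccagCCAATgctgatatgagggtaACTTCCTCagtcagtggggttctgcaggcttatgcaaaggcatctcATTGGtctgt

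Cytoskeleton and organelle transport held 4 members. Krt23 (chr11:99477974-99493137, minus strand), a type I keratin of epithelia, had 0, 0 and 0 reads in control, 0, 0 and 1 in OGD and 210, 232 and 212 in OGD + A-485 (9.32 ± 0.119 FPKM, SD, n = 3). Armcx3 (chrX:134756595-134761455, plus strand), which links mitochondria to the transport machinery of neurons, had 0, 0 and 0 reads in control, 0, 1 and 0 in OGD and 178, 173 and 171 in OGD + A-485 (3.30 ± 0.180 FPKM, SD, n = 3). Each had a single read in a single OGD library and was otherwise read in OGD + A-485 alone. Mlph, the melanophilin that ties pigment granules to myosin Va in melanocytes, had 36 to 43 reads in OGD + A-485, and Pdlim4, an actin-binding PDZ-LIM protein, had 35 to 41. The noncoding members other than Gm43771 had 0 reads in each control and OGD library. In OGD + A-485, AI427809 had 123 to 157 reads, AC166110.3 85 to 116 and AC140300.3 56 to 64.

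Some members resemble other genes so closely that short reads may not separate them. Over all stretches of 50 bases in the annotated exons of each member, 20 members shared none with any other gene, 32 shared under 5% and 10 shared 5% or more. Sirpb1b shared 58.0% of its stretches, mostly with Sirpb1c. Trim12c shared 33.0%, mostly with Trim5, Armcx3 29.0% with Gm9299, Akr1c13 24.2% with Akr1c12 and Cyp2c66 19.5% with Cyp2c65. AC166110.3 (19.1%), Ang (14.5%), Vmn2r97 (12%), Trim12a (10.4%) and Clec4a2 (6.69%) completed the 10. The handling of reads that map to several places and the use of strand in counting are not given in the sources used here, so the split of reads within these pairs is uncertain. Opposite-strand overlaps add to this for Klk8, which shares 382 exon bases with 2310002F09Rik (up to 4 reads in a library), for Ly75, which shares exon bases with Gm13571 (17, 34 and 14 reads in OGD + A-485), and for Sirpb1b, which shares 9 with Gm37468 (16, 14 and 15 reads in OGD + A-485). The longest such overlap was that of Irs1 with Gm9747, at 2822 bases (30.9% of Irs1), and Gm9747 had 0 reads in all 9 libraries. Slc8a1 (296 bases) and Apba1 (289 bases) overlap genes of the annotation that are not in the table.

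The relatives of the members were examined next, in 32 families of paralogs or pathway partners drawn up by hand after the values had been seen. They held 221 genes that are not members, of which 66 were tested. Of the 66, limma called 30 higher (45.5%, beside 12.2% of all genes tested) and 9 lower (13.6%, beside 13.4%) in OGD + A-485 against OGD. Among the 60 relatives that averaged 0.2 FPKM or more without the OGD + A-485 libraries, 26 were called higher (43.3%). Myeloid receptor families held many of these. In the Clec4 family, 4 of 5 tested relatives of Clec4a2 rose: Clec4a1 from a mean of 0.196 FPKM in OGD to 16.2 FPKM (log2 fold change 5.88, limma adjusted p 5.48e-07), Clec4a3 to 10.5 FPKM, Clec4n to 3.87 FPKM and Clec4d to 106 FPKM. Of the relatives of Sirpb1b, Sirpa, the receptor for CD47, rose from 59.6 to 137 FPKM (log2 fold change 1.20, limma adjusted p 1.14e-07). In the Slam family, 5 of 6 tested relatives of Slamf6 rose, with Cd84 at 2.54, Cd244a at 1.34, and Cd48 and Slamf9 at 1.07 each in log2 fold change. Sirpb1a and Sirpb1c had at most 4 reads in a control or OGD library and passed the filter only through OGD + A-485, so nothing is read from their calls. The other receptors that rose were read in every control and OGD library, Clec4a1 with as few as 2 reads, unlike the member of their family.

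Elsewhere the relatives moved in both directions or not at all. Among the glycosylation enzymes, Galnt4, Galnt10 and Galnt6 rose (log2 fold changes of 1.66, 0.82 and 0.91) and Galnt3 fell (-0.59). Of the coagulation genes around Proc, F7 and F10 rose (2.63 and 2.57), and tissue factor F3 and F5 fell (-2.82 and -0.59). Irs2, the second insulin receptor substrate, rose (1.47), as did Rragc, a Rag GTPase partner (0.78), Trim30a (3.02) and the nicotinic subunit gene Chrnb2 (1.62). The thrombospondin Thbs3 fell (-1.80), as did Haao of the kynurenine pathway (-1.45) and Pdlim7 (-0.90). Ido2 of the same pathway, which passed the filter only through OGD + A-485, was called higher (1.34), but its call was lost without OGD library 1 (1.16) or OGD library 2 (1.37) and with a pseudocount of 1 FPKM (0.40). None of the 17 other Cyp2c genes passed the filter, 9 of them had 0 reads in all 9 libraries, and Vnn1, the other vanin gene of the table, also had 0 reads throughout. The 2 highest members by level thus had no tested paralog.

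**Figure D3:**
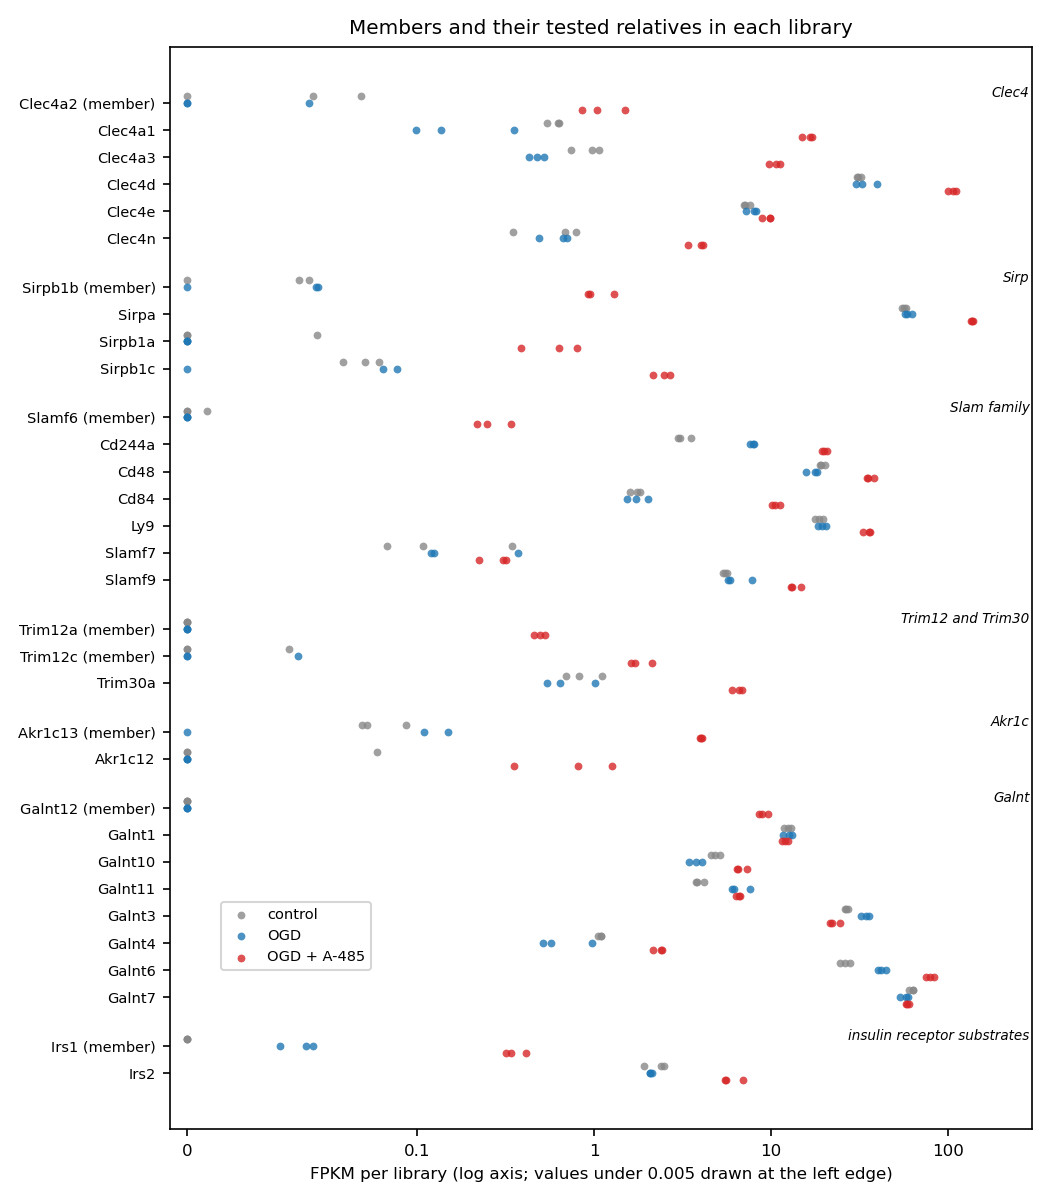
FPKM (log axis, values under 0.005 at the left edge) of members and tested relatives of 7 families in each library, grey for control, blue for OGD and red for OGD + A-485, with members marked as such. Clec4a1 stands at a mean of 0.196 FPKM in OGD and 16.2 FPKM in OGD + A-485, and Sirpa at 59.6 and 137 FPKM.

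The position of the members was considered through the tested genes nearest to them, at most 1 on each side and within 100 kb, members left out. There were 41 such neighbours of 32 members, and limma called 14 of them higher in OGD + A-485 against OGD (34.1%, beside 12.2% of all genes tested) and 4 lower (9.76%, beside 13.4%). Of the 8 neighbours that overlap a member, 5 were called higher, and of the 33 that do not, 9 (27.3%). Of the 41, 8 had under 0.2 FPKM in the mean of the control and OGD libraries, a group that passes the filter only through OGD + A-485, and 7 of these were called higher. Of the other 33, 7 were called higher (21.2%). Some neighbours called higher, among them Trim30a, Clec4n and Sirpb1a, were also counted among the relatives called higher. The counts of neighbours and of relatives are therefore not independent. Rnase4, which overlaps Ang, rose from 0.167 to 20.6 FPKM (log2 fold change 6.30, limma adjusted p 1.25e-07). Trim30a beside Trim12c rose from 0.731 to 6.47 FPKM (3.02). The others called higher beside the members named in full had 0 reads in each OGD library: Akr1c12 beside Akr1c13 had 15, 7 and 23 reads in OGD + A-485, 4930480C01Rik, which overlaps Chrna9, had 14, 7 and 10, and Gm12424, which overlaps Galnt12, had 7, 2 and 9. 4930480C01Rik and Gm12424 lie on the same strand as Chrna9 and Galnt12. Their reads cannot be told apart from unspliced transcripts of those members, although both are counted among the overlapping neighbours called higher. Ocrl beside Apln was called lower (-0.51), a call that ended without OGD library 2 (-0.45) or OGD + A-485 library 3 (-0.43), with a pseudocount of 1 FPKM (-0.43) and after quantile normalization (-0.48). Krt10 beside Krt23 was called lower (-0.82) and lost its call without OGD library 1 (-0.90), 2 (-0.77) or 3 (-0.80), OGD + A-485 library 1 (-0.57) or 2 (-0.90) or any control library (-0.82 each), with a pseudocount of 1 FPKM (-0.43), after quantile normalization (-0.80), and with a filter of 1 FPKM, no filter or only the compared groups in the fit (-0.82 each). Fam189a2 beside Apba1, named after its values were seen, was called lower (-0.76) and lost its call without OGD library 1 or 2 (-0.72 each) or 3 (-0.83), OGD + A-485 library 2 (-0.53) or 3 (-0.81) or control library 2 (-0.76), with only the compared groups in the fit (-0.76), with a pseudocount of 1 FPKM (-0.42) and after quantile normalization (-0.73). The neighbours called higher beside other members that had 0.2 FPKM or more without OGD + A-485 are also named after their values were seen: Cd302 beside Ly75 (4.11, from 1.90 to 34.1 FPKM), Arhgap15 beside Kynu (2.11), Cstf2t, which overlaps Prkg1 (1.12), P4ha2 beside Pdlim4 (0.57) and Clec4n beside Clec4a2 (2.48). P4ha2 lost its call without OGD library 1 (0.52) or 2 (0.56), any OGD + A-485 library (0.51, 0.59 and 0.59) and with a pseudocount of 1 FPKM (0.42). Rps12 beside Vnn3 (0.04), Wars2 beside Tbx15 (0.42) and Pik3r4 beside Col6a6 (-0.44) were not called.

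On a wider scale, the median log2 fold change of the 50 nearest expressed genes ran from -0.38 to 0.68, the highest around Ang, with a median of 0.02 over the members, and was above 0 for 23 of 42 (54.8%). Around all 11847 genes that averaged 1 FPKM or more, the median was 0.03 and 61.2% were above 0. The members lay on 17 chromosomes, with 5 on chromosome 1, 4 each on 7, 17 and 19, and none on 8, 12 or 15.

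Promoter sequences were available for 31 of the 42 members (RefSeq, build GRCm38.p6), as windows from 250 bases before to 50 bases after the start. The start lay within 50 bases of the GENCODE gene start for 22 of the 31, and far from it for Slc8a1 (88780 bases), Chrna9 (32203) and Clec4a2 (16262), so some windows may stand at another start than the one in use. Members without an entry included Galnt12, Armcx3, Tbx15, AI427809, AC166110.3, Gm43771, AC140300.3, Proc, Kynu and Thbs1. The 31 promoters had a median GC content of 53.0%, beside 60.3% for 9751 genes tested and 49.3% for 6529 other protein-coding genes that are silent in control and OGD. CpG dinucleotides, which are frequent in the promoters of broadly active genes, were counted as observed over expected. The median was 0.358 in the members, 0.765 in the genes tested and 0.240 in the other silent coding genes. A ratio above 0.6 was found in 9 of 31 members (29.0%), 70.9% of the genes tested and 19.3% of the other silent coding genes. Cyp2c66 (0.0913), Vnn3 (0.321) and Trim12a (0.0563) stood on the low side, and Lyplal1 (0.828) and Apba1 (1.15) on the high side.

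**Figure D4:**
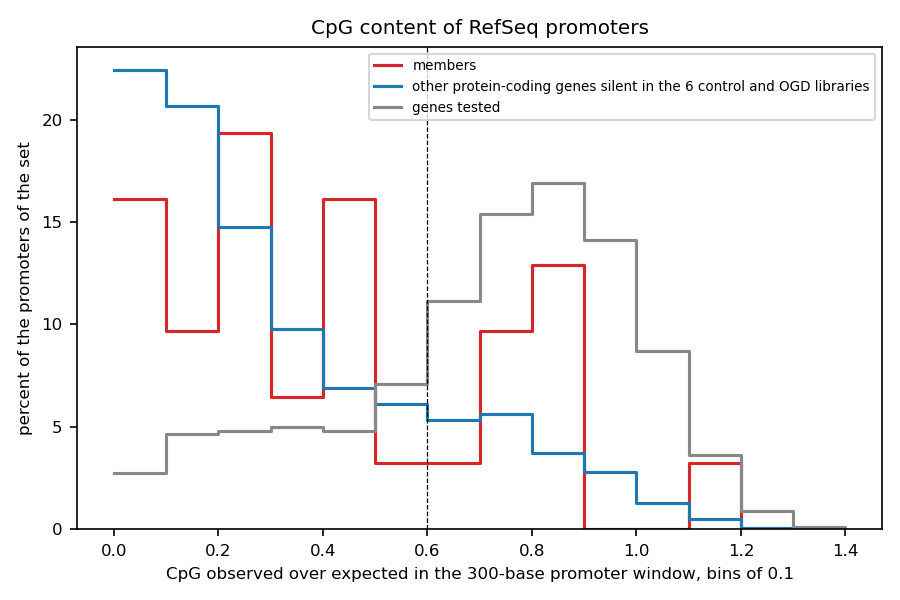
Share of promoters (vertical axis, percent) by observed over expected CpG (horizontal axis, bins of 0.1, dashed line at 0.6) for the 31 members with a promoter, 9751 genes tested and 6529 other silent protein-coding genes. The medians are 0.358, 0.765 and 0.240, so the members lie between the other sets.

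The same windows were searched on both strands for 9 motifs, and matches are letters only. The TATA box (TATAAA) was in 3 of 31 member promoters (9.68%), beside 7.13% of the genes tested, 21.6% of the other silent coding genes and 13.1% of all 20484 promoters. For the motifs that follow, the shares of these same sets are given in that order. The CCAAT box (CCAAT) was in 11 (35.5%, beside 39.2%, 38.7% and 38.3%) and the GC box (GGGCGG) in 13 (41.9%, beside 62.5%, 25.7% and 42.7%). The E-box (CACGTG) was in 3 (9.68%, beside 10.3%, 5.15% and 7.70%) and the AP-1 (TGANTCA) in 2 (6.45%, beside 5.13%, 10.1% and 7.37%). GAGGAAGT (PU.1, the lineage factor of macrophages) was in 3 promoters, those of Abcg2, Trim12c and Trim12a (9.68%, beside 3.38%, 3.02% and 3.14%), and Trim12a and Trim12c are paralogs. The CRE (TGACGTCA), TTCAGCACC (left part of the RE1 element) and TAGCGTG (xenobiotic response element) were in 0 of 31, beside 3.39%, 1.10% and 2.21% for the first, 0.349%, 0.398% and 0.361% for the second and 1.35%, 0.459% and 0.942% for the last. No motif was found in 8 of the 31. The TATAAA match lay 150 bases before the start in Cyp2c66 and 161 bases before it in Clec4a2. That of Abcg2 was not within the 250 upstream bases.

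The identity of the cells was checked with 24 lists of marker genes, 235 genes in all, of which 55 were tested and none was a member. Microglia and macrophage markers were present in every library. Their 13 genes summed to 491, 499 and 480 FPKM in control, 609, 605 and 627 in OGD and 1170, 1140 and 1160 in OGD + A-485, with Cd68 the most abundant and none at 0 in all libraries. Of the 11 tested, 9 were called higher in OGD + A-485 against OGD and 0 lower (12.2% and 13.4% of all genes tested; median log2 fold change 1.35, beside 0.01 over all genes tested). Adgre1 (F4/80) changed by 2.04 in log2 (limma adjusted p 8.37e-09), Tyrobp by 1.60, Csf1r by 1.55 and Aif1 by 1.46. Markers of mature brain microglia were low or absent: Tmem119 had 46, 51 and 44 reads in control, 45, 34 and 44 in OGD and 45, 53 and 40 in OGD + A-485, P2ry12 had 0, 5 and 2 reads in control, 1, 0 and 0 in OGD and 9, 12 and 7 in OGD + A-485, and Sall1 had a single read in a control library. The label of a microglial line therefore rests here on general macrophage genes.

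**Figure D5:**
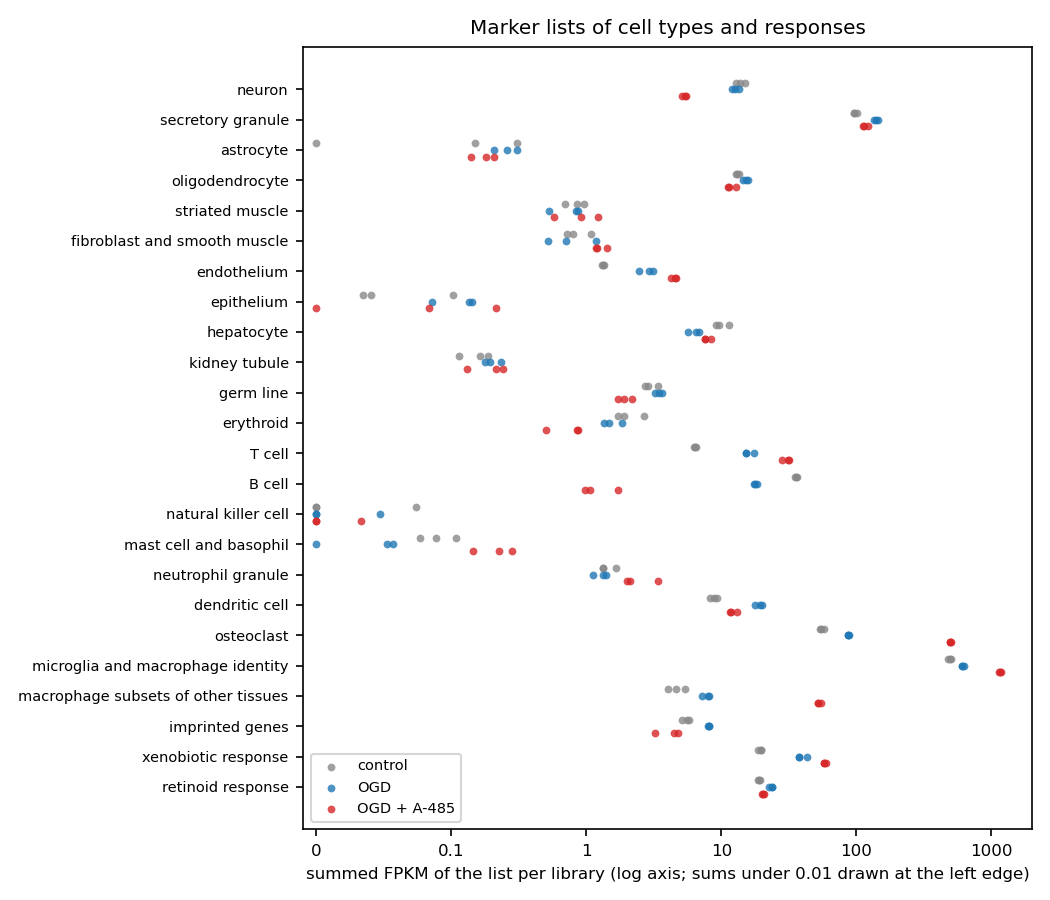
Summed FPKM (log axis, sums under 0.01 at the left edge) of each of the 24 marker lists in each library, grey for control, blue for OGD and red for OGD + A-485. The microglia and macrophage list stands highest at 480 to 1170 FPKM, and the lists of epithelium, astrocyte, natural killer cell, mast cell and kidney stay at or under 0.308 FPKM in each library.

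Macrophage markers of other tissues, 9 genes, summed to 4.62, 5.41 and 4.06 FPKM in control, 7.15, 7.95 and 8.04 in OGD and 55.0, 51.9 and 52.2 in OGD + A-485. Siglec1, the most abundant, rose by 2.30 in log2, and Marco had the reads given above and passed the filter only through OGD + A-485, while Timd4, Clec4f and Cd163 had 0 reads in all libraries. Of 7 osteoclast genes, Ctsk, the most abundant, rose (3.30), Dcstamp, Oscar and Ocstamp fell (-2.89, -1.65 and -0.80), Calcr was at 0, and the sums were 57.3, 53.6 and 54.5 FPKM in control, 87.2, 86.2 and 87.8 in OGD and 490, 494 and 501 in OGD + A-485. In the dendritic cell list of 7 genes, Itgax, the most abundant, fell (-0.67) and Siglech was at 0, with sums of 9.26, 8.81 and 8.24 FPKM in control, 19.3, 17.8 and 19.9 in OGD and 11.9, 11.5 and 13.0 in OGD + A-485. The part of these macrophage lists in the levels of the members was not tested.

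Lists for the tissues in which members are usually found differed in level. The 8 hepatocyte genes summed to 9.56, 9.06 and 11.4 FPKM in control, 6.88, 6.45 and 5.61 in OGD and 7.62, 7.61 and 8.44 in OGD + A-485, nearly all of it from Afp, while Ttr, Serpina1a, Fga, Fgb and Cyp3a11 were at 0 and limma called 0 of 1 tested gene (1 at an unadjusted p under 0.05). The 10 epithelial genes summed to at most 0.215 FPKM in a library, led by Krt7, with Krt5, Krt14 and Krt18 at 0 and none tested. The 16 neuronal genes summed to 15.1, 13.7 and 12.9 FPKM in control, 12.5, 12.1 and 13.6 in OGD and 5.39, 5.11 and 5.51 in OGD + A-485, with Syn1 the most abundant, which fell (-1.31), and Nefl, Nefm, Elavl4, Dcx and Gap43 at 0. Astrocyte genes (8, led by S100b, with Aqp4, Slc1a3, Gja1 and Sox9 at 0) and kidney tubule genes (6, led by Lrp2, with Umod and Slc12a1 at 0) were not tested and stayed at or under 0.308 and 0.241 FPKM in sum. In the lists of striated muscle (12 genes, led by Tnnt3, with Actc1, Myog and Myl1 at 0) and of fibroblasts and smooth muscle (10, led by Acta2, with Col1a2, Dcn and Lum at 0), limma called 0 of 2 and 0 of 1 tested (1 and 0 at an unadjusted p under 0.05). Their sums were at most 1.22 and 1.42 FPKM in a library. The endothelial list (8 genes) summed to 1.32, 1.36 and 1.30 FPKM in control, 2.92, 3.11 and 2.46 in OGD and 4.53, 4.58 and 4.27 in OGD + A-485, with Vwf the most abundant, which rose (1.15), and Tie1, Emcn and Cldn5 at 0. The xenobiotic response list (12 genes, led by Tiparp) held 1 call of 4 tested, Abcb1a, an efflux pump like Abcg2 that passed the filter only through OGD + A-485, from 0.319 to 11.9 FPKM (4.87), with sums of 19.7, 18.8 and 19.5 FPKM in control, 37.4, 43.2 and 37.7 in OGD and 57.8, 59.1 and 57.3 in OGD + A-485 and Cyp1b1, Cyp2b10 and Gsta2 at 0.

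Blood cell lists were mixed. Il7r, the most abundant of 10 T cell genes, and Lck rose (0.92 and 0.77), with Trac and Thy1 at 0 and sums of 6.39, 6.5 and 6.28 FPKM in control, 15.3, 17.5 and 15.1 in OGD and 28.3, 31.0 and 31.7 in OGD + A-485. With a pseudocount of 1 FPKM the call of Lck was lost (0.46). Of 7 B cell genes, Ighm, the most abundant, and Cd79b fell (-4.38 and -1.55), and the sums were 35.6, 36.3 and 35.3 FPKM in control, 17.8, 18.5 and 17.5 in OGD and 0.969, 1.06 and 1.73 in OGD + A-485. In the neutrophil list of 10 genes, S100a8, the most abundant, had 0, 1 and 0 reads in control, 4, 1 and 1 in OGD and 14, 29 and 18 in OGD + A-485 and passed the filter only through OGD + A-485. It was called higher (2.78), and with a pseudocount of 0.01 FPKM it was not, although the log2 fold change was larger (3.35). Prtn3 of the same list fell (-1.41), with Ctsg, Ngp, S100a9 and Ly6g at 0 and sums of 1.33, 1.66 and 1.33 FPKM in control, 1.39, 1.33 and 1.12 in OGD and 1.99, 3.36 and 2.09 in OGD + A-485. Natural killer genes (6, led by Prf1, with Ncr1, Klrk1, Gzma and Gzmb at 0) and mast cell genes (9, led by Hdc, 7 of them at 0, Kit included) were not tested, with sums of at most 0.0543 and 0.283 FPKM. Of 9 erythroid genes, Hba-a1, the most abundant, was called lower (-2.38), Hbb-bs and Hbb-bt were at 0, and the sums were 1.72, 1.90 and 2.66 FPKM in control, 1.83, 1.46 and 1.34 in OGD and 0.864, 0.856 and 0.503 in OGD + A-485. The call of Hba-a1 was lost without OGD library 1 (-1.98), without OGD + A-485 library 2 or 3 (-2.14 each) and with a pseudocount of 1 FPKM (-0.65). The part of these cells in the members' levels was not tested.

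The remaining lists mark programmes rather than cells, apart from those of the germ line and of oligodendrocytes. Of 19 imprinted genes, Cdkn1c fell (-1.63), Nnat was the most abundant, 10 including H19 and Igf2 were at 0, and the sums were 5.58, 5.80 and 5.14 FPKM in control, 8.16, 7.94 and 8.16 in OGD and 4.48, 4.81 and 3.22 in OGD + A-485. Of 7 retinoid response genes, Cyp26b1 was called lower with 17, 18 and 18 reads in control, 31, 13 and 42 in OGD and 0, 0 and 4 in OGD + A-485 (log2 fold change -2.04, or -0.45 and not called with a pseudocount of 1 FPKM), Dhrs3 was the most abundant, Rarb was at 0, and the sums were 19.3, 18.9 and 18.7 FPKM in control, 22.6, 23.8 and 23.7 in OGD and 20.4, 19.9 and 20.8 in OGD + A-485. The 9 secretory granule genes held a fall of Vgf (-1.71), were led by Cpe, had Chga and Pcsk1 at 0 and summed to 101, 95.9 and 95.5 FPKM in control, 135, 146 and 141 in OGD and 112, 114 and 121 in OGD + A-485. Of 14 germ line genes, Ddx4 and Piwil2, the most abundant, were called lower (-1.40 and -0.65), with Prm2, Tnp1, Mael, Piwil1 and Tdrd1 at 0 and sums of 2.88, 3.41 and 2.70 FPKM in control, 3.42, 3.21 and 3.61 in OGD and 1.71, 1.89 and 2.18 in OGD + A-485. Of 9 oligodendrocyte genes, Cnp was the most abundant, Mog, Mag, Olig1 and Olig2 were at 0, and the sums were 13.1, 13.4 and 12.8 FPKM in control, 14.4, 15.7 and 15.3 in OGD and 12.9, 11.3 and 11.3 in OGD + A-485. The call of Piwil2 was lost with replicate number as a block and with only the compared groups in the fit (-0.65 each), with a pseudocount of 1 FPKM (-0.42), after quantile normalization (-0.60), and without OGD library 1 (-0.62) or 3 (-0.60), OGD + A-485 library 1 or 2 (-0.55 each) or control library 1 (-0.65).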

How the data were processed

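The authors deposited FPKM for 54532 mouse genes in 9 libraries with gene lengths and coordinates (the labels name GRCm38, also called mm10). By the study's methods, clean reads were counted per gene with featureCounts and FPKM was made from gene length and read count. The aligner, the use of strand and the handling of multi-mapped reads are not given in the sources used here. Dividing FPKM times length by a step per library returned whole numbers in 100% of nonzero entries (tolerance 0.01 reads), with 12593250 to 16091038 reads per library. Floors of 3 reads cover counting error only. Values are as deposited, on the authors' scaling.

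The rule was applied to FPKM times length. For background, neighbours, relatives and lists, the 16123 genes averaging 0.2 FPKM or more entered limma 3.58.1 (R 4.3.3) as log2(FPKM + 0.1), with 3 group means and a trended prior. Calls needed a p under 0.01 before adjustment and a log2 fold change beyond 0.5 in either direction. In simulated data with 200 changed genes, 100% of 4-fold and 94% of 2-fold changes and 0.603% of unchanged genes were called. The changed genes were drawn from those above a minimum of mean reads, and all genes were given the same dispersion. These rates therefore need not hold for genes with few reads or for the spread of the real libraries. Adjusted p is Benjamini-Hochberg over all genes tested. The comparisons share libraries, so their calls are not independent. Members and lists were chosen with earlier results of these data known, and the families of relatives and the roles were drawn up after the values were seen.

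The members given with gene position and reads in every library come from the 20 with an annotated symbol and the most reads in their lowest OGD + A-485 library. Reads by library are also given for Irs1, Trim12a and Proc, which lie outside these 20. Neighbours are named for the 20 (others after their values were seen), and up to 4 called genes per list. A few genes are not reported here. The 24 lists cover microglia and macrophages, other blood cells, other tissues, imprinted genes, and xenobiotic and retinoid response. Promoters are RefSeq windows matched by symbol. Of 1059 checked against transcripts after the start, 79.7% matched as given and 0% reversed. Annotation was GENCODE M21, whose gene coordinates equalled those of the table for 98.3% of 54495 shared identifiers. Python 3.11.15, numpy 2.4.6, pandas 2.3.3 and matplotlib 3.10.9 were used. Alternatives were other limits of the rule, pseudocounts, filters, scaling, limma-voom on recovered reads, a replicate block, call thresholds and distances, and leaving out each library.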

Additional observations from a re-analysis of the deposited data

How the results depend on the processing

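The number of genes meeting the rule, 42, was 43 with whole reads, 63 with an upper limit of about 15 reads and 55 with a silent limit of about 6 reads. It was 23 with about 60 reads in each OGD + A-485 library and 26 with about 1 read at most elsewhere, where the stricter threshold itself lowers the count, and 42 to 46 with 1 library left out. Genes called in OGD + A-485 against OGD (4139) numbered 3396 to 4645 over 9 alternatives, 4046 with a replicate block and 3900 to 4117 with 1 library left out. Against control (5431) the counts were 4546 to 5946, 5317 with the block and 5164 to 5431. For OGD against control (3384) they were 2685 to 3720, 3288 with the block and 3088 to 3363. Replicate numbers did not pair libraries: residual correlations averaged -0.0023 over 9 pairs of equal number and 0.0012 over 18 of unequal number. The 14 neighbours called higher became 9 of 30 among genes averaging 1 FPKM or more (fewer genes tested), 9 of 31 within 50 kb, 22 of 67 within 500 kb, where fewer or more genes are counted by construction, 14 with the block and 10 to 14 with 1 library left out. Of 1515 values of 86 genes followed singly, 1447 kept their direction and side of the threshold, 68 lost a call and 0 reversed. The lost calls belonged to 12 genes, among them Krt10, P4ha2, Fam189a2, Ocrl, Piwil2, Hba-a1, Ido2, Lck, Cyp26b1 and S100a8, and the cause was not tested. With quantile normalization the median of all genes moved by less than 0.1. The planned edgeR test was not run, and limma-voom on recovered reads stands in its place. Counts near 3 reads limit what can be called silent.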
